A study of Mus musculus with 30 samples.

Results

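The second day of BDNF in wild-type mouse telencephalic cultures was examined by setting 5 dishes lysed after 48 h of BDNF against 5 dishes lysed after 24 h, 10 of the 30 arrays of the series. The arrays were chosen by their labels (WT_BDNF_48h and WT_BDNF_24h), not by any measured value. The cells, grown in serum-free medium, were telencephalic (the forebrain region from which cortex and basal ganglia develop) and were taken at embryonic day 12.5. Cells of 4 Xbp1+/+ embryos formed 1 pool that was divided over 15 wild-type dishes. Treatment with 100 ng/ml BDNF began on the culture's day 3. Lysis followed on day 5 for the 48 h group and on day 4 for the 24 h group, so that BDNF was present in both, and the hours with BDNF and the day in culture cannot be told apart. The wild-type basal dishes (5 arrays, no BDNF, lysed on day 4) and the dishes from a pool of 6 Xbp1-/- embryos, with 48 h and 24 h of BDNF (5 arrays each), are given where a value is set beside them. Since all dishes of a genotype share 1 pool of embryos, p-values measure the spread between dishes and not between animals.

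BDNF, brain-derived neurotrophic factor, binds the receptor tyrosine kinase TrkB on neurons and activates the ERK, PI3K and phospholipase C pathways. Early after its addition neurons transcribe immediate-early genes, and later they change the mRNA levels of neuropeptides, ion channels and synaptic proteins. In the developing telencephalon BDNF is known for promoting the maturation of GABAergic interneurons and the expression of their peptides, among them neuropeptide Y and somatostatin. The comparison asks which of these groups of genes still moved between the first and the second day.

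Levels are given as log2 of the array signal over that array's median, so that 0 is the median of an array and a difference of 1 is a doubling. Before scaling, array medians were 106 to 128 intensity units at 48 h, against 81.9 to 113 at 24 h. Defining markers of neurons were at high levels: Tubb3, a neuronal tubulin, averaged 4.64 ± 0.14 at 48 h and 4.52 ± 0.11 at 24 h (SD, n = 5 each). Gfap, Aqp4, S100b and Slc1a2, which define mature astrocytes, lay among the lower 40% of genes and were not tested. The 5 arrays at 48 h were not alike. On the first component of the 10 arrays, which held 33.9% of the variance, 48 h replicates 3, 4 and 5 lay at 13.9, 11.7 and 15.4, while replicates 1 and 2 lay at -0.42 and 2.92, and the 24 h arrays at -10.7 to -6.24. The 75th percentile over the median was 4.47 to 4.69 on replicates 3 to 5 and 4.11 and 4.24 on replicates 1 and 2, against 4.20 to 4.31 at 24 h. The ratio of 3' to 5' signal of Gapdh, which reflects how intact and fully labelled the RNA was, lay at 2.40 to 2.62 at 48 h and 2.67 to 3.05 at 24 h, without overlap. The part of these array properties in the results was not tested beyond the refits given beside the gene groups, which used 48 h replicates 1 and 2 alone, used replicates 3 to 5 alone, or held the Gapdh ratio as a covariate.

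Of 7436 tested genes, 619 (8.32%) rose and 415 (5.58%) fell between 24 h and 48 h in wild-type cultures, by limma with Benjamini-Hochberg adjusted p under 0.05. The median change was 0.36 over the genes that rose and -0.35 over those that fell, against 0.02 over all tested genes. The 5 arrays at 48 h did not overlap with the 5 arrays at 24 h in 583 tested genes (7.84%), of which 480 passed the threshold. Among the calls 59.9% were higher at 48 h, but 45% were after quantile normalization and 40.6% after 75th percentile scaling, so the balance of rises and falls depends on the scaling. With 48 h replicates 1 and 2 alone 33 genes were called higher and 103 lower. Replicates 3 to 5 alone gave 1104 higher and 493 lower, and the Gapdh ratio as a covariate gave 126 higher and 171 lower. Of the 1034 genes called with all arrays, the refits also called 121, 912 and 261, all of them in the same direction. Replicates 1 and 2 alone leave fewer 48 h arrays than replicates 3 to 5 alone, and both leave fewer than the full set. A call lost in such a refit, here or below, does not show that the change was absent. In bulk cultures more RNA per cell and more cells of a type cannot be told apart, and this holds for every gene below. The 8.32% and 5.58% of all tested genes that rose and fell are the shares to set beside each list count below.

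**Figure D1:**
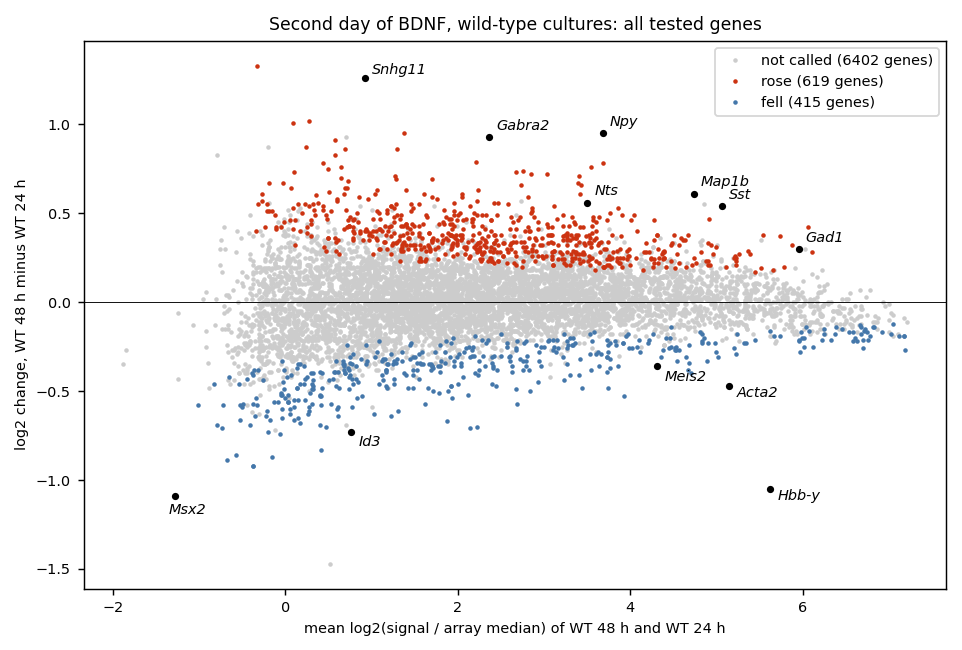
The log2 change (WT 48 h minus WT 24 h, y axis) of each of the 7436 tested genes against its mean log2 level in the 2 groups (x axis), with the 619 genes that rose in red, the 415 that fell in blue, the others in grey and labelled examples in black. The labelled genes show that changes of up to 0.95 (Npy) and -1.05 (Hbb-y) occurred among genes of high level, while the largest fall past the threshold among genes whose arrays did not overlap, Msx2 at -1.09, lay at a low level.

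Of 13 tested neuropeptide precursors 5 rose and 1 fell. The promoters of the 3 that rose the most are printed here, to show the genes on which this count rests, from RefSeq (GRCm38.p6, 5′ to 3′ on the gene's strand, 250 bases before to 50 after the start). Capitals mark TGACG or its reverse complement CGTCA, the half-site of the cAMP response element to which CREB, a transcription factor activated downstream of TrkB, binds. The windows are Npy on the plus strand (chr6:49822460-49822759), Sst on the minus strand (chr16:23890795-23891094) and Nts on the minus strand (chr10:102490369-102490668).
Npy: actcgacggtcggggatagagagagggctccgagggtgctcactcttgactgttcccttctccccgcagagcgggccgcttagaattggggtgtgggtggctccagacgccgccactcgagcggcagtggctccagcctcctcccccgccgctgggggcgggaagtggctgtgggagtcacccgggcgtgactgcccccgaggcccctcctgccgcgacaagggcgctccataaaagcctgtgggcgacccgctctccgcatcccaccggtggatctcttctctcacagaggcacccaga
Sst: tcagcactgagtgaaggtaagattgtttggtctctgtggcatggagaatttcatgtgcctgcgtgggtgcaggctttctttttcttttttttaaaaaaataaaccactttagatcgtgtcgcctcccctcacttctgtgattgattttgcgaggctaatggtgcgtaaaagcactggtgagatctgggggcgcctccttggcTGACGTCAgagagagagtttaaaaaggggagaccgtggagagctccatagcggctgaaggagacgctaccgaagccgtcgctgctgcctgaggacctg
Nts: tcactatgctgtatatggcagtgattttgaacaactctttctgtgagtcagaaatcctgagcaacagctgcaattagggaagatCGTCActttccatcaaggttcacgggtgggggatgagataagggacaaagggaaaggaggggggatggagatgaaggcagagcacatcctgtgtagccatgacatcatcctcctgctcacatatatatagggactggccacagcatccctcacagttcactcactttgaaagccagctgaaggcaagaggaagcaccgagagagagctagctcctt
Sst held 2 overlapping matches, which together spell TGACGTCA, from 48 bases before the start, and Nts held 1 match from 166 bases before it. The Npy window had none of these letters in this order. Of 32851 RefSeq promoter windows of 300 bases, 20.8% held the half-site and 1.79% the full TGACGTCA, so the half-site alone is common and a match describes only the letters.

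Npy encodes neuropeptide Y, a peptide of cortical interneurons. Its level was 4.08, 4.25, 3.99, 4.11 and 4.35 on the 48 h arrays, against 3.13, 2.99, 3.00, 3.30 and 3.61 on the 24 h arrays. Every 48 h array lay above every 24 h array, and the change was 0.95 ± 0.10 (SE; 1.93-fold, adjusted p = 1.08e-06 by limma). Basal dishes had averaged 0.98 ± 0.09, so the level of Npy without BDNF lay far below both groups. Sst encodes somatostatin, an inhibitory peptide that marks another interneuron class. Its level was 5.13, 5.42, 5.23, 5.51 and 5.40 at 48 h, against 4.82, 4.54, 4.82, 4.87 and 4.92 at 24 h. Again the groups did not overlap, and Sst rose by 0.54 ± 0.08 (1.46-fold, adjusted p = 7.68e-05 by limma). Nts encodes neurotensin, a peptide transmitter and modulator of dopamine signalling. Its values of 3.63, 3.85, 3.66, 3.83 and 3.93 at 48 h lay above the 3.28, 2.98, 3.11, 3.15 and 3.60 of the 24 h arrays by a narrow margin at the nearest pair. Nts rose by 0.56 ± 0.11 (1.47-fold, adjusted p = 0.0015 by limma).

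Adcyap1, the precursor of PACAP, a peptide that raises cAMP in its target cells, was at 1.48, 1.45, 1.89, 1.60 and 1.24 at 48 h, against 1.0, 0.83, 1.19, 1.02 and 1.19 at 24 h. It rose by 0.49 ± 0.13 (adjusted p = 0.0097 by limma), and its groups did not overlap. Penk, the enkephalin precursor, rose by 0.35 with an adjusted p of 0.0208, and is named beyond the 5 largest of the list. Oxt, the oxytocin precursor, moved the other way. It was at 1.23, 1.51, 0.09, 0.84 and 0.80 at 48 h, against 1.61, 1.51, 1.45, 1.65 and 1.45 at 24 h, so that the spread was much wider at 48 h. The change of Oxt was -0.64 ± 0.18 (adjusted p = 0.0149 by limma), and the call was lost without 48 h replicate 3, which held the lowest value. Among 13 tested precursors of the 21 measured, 5 rose and 1 fell, with a median change of 0.35 against 0.02 over all genes. Cck changed by 0.10 and Tac1 by 0.06, neither past the threshold. Avp at 0.51 and Grp at 0.44 also missed it, with adjusted p of 0.061 and 0.0716. With 48 h replicates 1 and 2 alone 2 precursors rose, with replicates 3 to 5 alone 5 rose and 2 fell, and with the Gapdh covariate 3 rose. Npy and Sst rose in each of the 27 refits.

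Granins and the enzymes that process prohormones package and mature such peptides in dense-core vesicles. Of 13 tested members 4 rose and none fell, with a median change of 0.18. Qpct, glutaminyl-peptide cyclotransferase, forms the pyroglutamyl end of some peptides, neurotensin among them. It was at 0.43, 0.67, 0.87, 0.71 and 1.23 at 48 h, against 0.05, -0.16, -0.05, -0.69 and -0.31 at 24 h. The groups did not overlap, and Qpct rose by 1.02 ± 0.14 (2.02-fold, adjusted p = 4.25e-05 by limma). Chgb, chromogranin B, a core protein of the vesicles, averaged 5.15 ± 0.16 at 48 h and 4.68 ± 0.13 at 24 h, a rise of 0.47 ± 0.07. Scg5, the chaperone of the convertase PC2, averaged 4.24 ± 0.36 and 3.78 ± 0.07, a rise of 0.46. Cadps, which primes dense-core vesicles for release, rose by 0.25, with groups that overlapped. Pam, which amidates peptides, had 0.37 with an adjusted p of 0.3034, and the convertase Pcsk1 had -0.15, also not past the threshold. Replicates 1 and 2 alone at 48 h gave 1 rise in this list, replicates 3 to 5 alone gave 8, and the Gapdh covariate gave 2.

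Other secreted proteins organise synapses. Of 4 tested genes for pentraxins, C1q-like proteins and Lgi1, 3 rose, with a median of 0.44. C1ql3, a ligand of the adhesion receptor Adgrb3 (BAI3), was at 2.34, 2.42, 2.83, 2.66 and 2.78 at 48 h, against 2.19, 1.77, 1.74, 1.62 and 1.75 at 24 h. The groups did not overlap, and C1ql3 rose by 0.79 ± 0.12 (1.73-fold), while its second, dimmer probe set changed by 0.11 with an adjusted p of 0.7083. Lgi1, which links ADAM22 across the synapse, averaged 2.05 ± 0.22 at 48 h and 1.60 ± 0.06 at 24 h, a rise of 0.45 ± 0.09. Nptx1, a pentraxin that clusters AMPA receptors, rose by 0.44 at its brightest probe set, but its other probe set had -0.31 with an adjusted p of 0.3522. Cbln1 had 0.02. In this list 1 member rose with 48 h replicates 1 and 2 alone, 3 with replicates 3 to 5 alone and 1 with the Gapdh covariate.

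The mRNAs of both enzymes that make GABA and of its vesicular transporter rose. Gad1, which makes most GABA of the brain, was at 5.98, 6.08, 6.01, 6.20 and 6.24 at 48 h, against 5.93, 5.77, 5.79, 5.76 and 5.76 at 24 h. The groups did not overlap, although 24 h replicate 1 came close, and the rise was 0.30 ± 0.07 (1.23-fold, adjusted p = 0.0064 by limma). Gad2, the synaptic isoform, averaged 1.73 ± 0.15 at 48 h and 1.18 ± 0.34 at 24 h, a rise of 0.55 ± 0.15 with an adjusted p of 0.0143 that was lost without 24 h replicate 3. Slc32a1, the vesicular GABA transporter, rose by 0.32 with overlapping groups and an adjusted p of 0.0397, a call that ended in 16 of 27 refits, among them quantile normalization and 75th percentile scaling. Abat, which degrades GABA, had 0.07, not past the threshold. Of the 4 tested members 3 rose in all, but none did with 48 h replicates 1 and 2 alone, where the median was 0.19 against 0.31 with all arrays, 2 did with replicates 3 to 5 alone and 1 with the Gapdh covariate.

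Genes of receptors for GABA and glycine rose in part. Gabra2, the alpha 2 subunit of GABA-A receptors and a prominent alpha subunit of the embryonic brain, was at 2.70, 2.46, 2.83, 2.97 and 3.19 at 48 h, against 1.80, 2.13, 1.88, 1.73 and 1.95 at 24 h. Every 48 h value was above every 24 h value, and Gabra2 rose by 0.93 ± 0.17 (1.9-fold, adjusted p = 6.32e-04 by limma). Glrb, the beta subunit of the glycine receptor, which binds gephyrin, was at 3.00, 3.03, 3.21, 3.05 and 3.29 at 48 h, against 2.58, 2.25, 2.32, 2.35 and 2.40 at 24 h. It rose by 0.74 ± 0.10 (1.67-fold, adjusted p = 3.19e-05 by limma), without overlap and in each of the 27 refits. Gabrg1, a gamma subunit, rose by 0.42, with overlapping groups and a call that ended in 11 of 26 refits. Gabrb1 and the scaffold gephyrin, Gphn, had 0.23 and 0.20, not past the threshold. Among 5 tested members 3 rose, with a median of 0.42. Replicates 1 and 2 alone at 48 h gave 1 rise, replicates 3 to 5 alone gave 4, and the Gapdh covariate gave 2.

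Of 5 tested glutamate receptor subunits 2 rose. Gria2, the AMPA receptor subunit that makes the channel impermeable to calcium, averaged 3.80 ± 0.15 at 48 h and 3.40 ± 0.10 at 24 h, a rise of 0.40 ± 0.08. Grik1, a kainate receptor subunit, averaged 1.68 ± 0.18 and 1.25 ± 0.08, a rise of 0.44 ± 0.09. Neither had overlapping groups, and neither was called with 48 h replicates 1 and 2 alone. Gria1 had 0.18 and Gria3 0.06, not past the threshold. The median of the list was 0.24, and 3 subunits rose with replicates 3 to 5 alone and 2 with the Gapdh covariate.

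Genes of the synaptic vesicle and of exocytosis rose in number: 12 of 23 tested members rose and none fell, with a median of 0.28. Snap25, a SNARE protein of the presynaptic membrane, was at 5.12, 5.10, 5.49, 5.43 and 5.51 at 48 h, against 4.89, 4.79, 4.80, 4.72 and 4.74 at 24 h. It rose by 0.54 ± 0.08 (1.46-fold, adjusted p = 1.01e-04 by limma), and replicates 3 to 5 were higher than replicates 1 and 2. Napb, a neuronal SNAP that disassembles SNARE complexes, rose by 0.48 ± 0.08. Vamp2, the SNARE of the vesicle itself, rose by 0.44, and the vesicle GTPases Rab3b and Rab3c by 0.47 and 0.46. Other probe sets of Vamp2 and Rab3c had 0.18 and 0.48, not past the threshold. The other members past the threshold rose by 0.23 to 0.40 and included the synapsins Syn1 and Syn2, Syp and the active-zone protein Pclo. Rab3a at -0.04, Stx1a at 0.07 and Slc17a6, the vesicular glutamate transporter, at 0.17 did not pass. With 48 h replicates 1 and 2 alone 2 members rose, with replicates 3 to 5 alone 15, and with the Gapdh covariate 4, while the median was 0.20, 0.35 and 0.25.

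Postsynaptic scaffold and adhesion genes had 2 rises among 11 tested members, beside 8.32% of all tested genes, and a median of 0.10. Both were calcium/calmodulin kinases: Camk2d rose by 0.59 ± 0.13 and Camk2b by 0.31 ± 0.08, each without overlap. The scaffold Dlg4 (PSD-95) had -0.22 and Homer2 -0.14, not past the threshold. None of the 11 was called with 48 h replicates 1 and 2 alone, with replicates 3 to 5 alone 3 rose and 1 fell, and with the Gapdh covariate 1 rose. Among voltage-gated channels 7 of 23 rose and none fell, with a median of 0.11. Cacnb4, an auxiliary calcium channel subunit, was at 1.75, 1.39, 1.63, 1.72 and 1.65 at 48 h, against 1.16, 0.58, 1.15, 0.72 and 0.96 at 24 h, a rise of 0.71 ± 0.11 without overlap (adjusted p = 1.64e-04 by limma). Cacna2d1, another such subunit, rose by 0.70, and the sodium channels Scn1a and Scn8a by 0.67 and 0.43, each with groups that overlapped. Kcnd2, a subunit of A-type potassium channels, rose by 0.36 ± 0.08 without overlap. Other probe sets had 0.24 (Cacnb4), 0.23 (Scn1a), and 0.19 and 0.29 (Kcnd2), not past the threshold. With 48 h replicates 1 and 2 alone 1 channel rose, with replicates 3 to 5 alone 8 rose and 2 fell, and with the Gapdh covariate 3 rose.

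Genes of neurofilaments and other parts of the neuronal cytoskeleton were mixed, with 6 rises, 1 fall and a median of 0.05 over 20 tested members. Map1b, a microtubule protein of growing axons, was at 4.84, 5.01, 5.07, 5.22 and 5.06 at 48 h, against 4.53, 4.49, 4.53, 4.34 and 4.26 at 24 h. It rose by 0.61 ± 0.09 at the brightest probe set, but 2 other probe sets had 0.55 and -0.12, with adjusted p of 0.1388 and 0.5554. Tuba4a, an alpha tubulin of mature neurons, rose by 0.66 ± 0.08 (1.58-fold, adjusted p = 9.77e-06 by limma), without overlap and at both of its tested probe sets (0.66 and 0.44). Its call ended in 1 of 27 refits, the one with the mean of probe sets. Nefm and Nefh, the medium and heavy neurofilament chains, rose by 0.38 and 0.57, while Tubb3 had 0.12 and Stmn2 0.08, not past the threshold. The 6 rises became 2 with 48 h replicates 1 and 2 alone, 7 (with 1 fall) with replicates 3 to 5 alone and 4 with the Gapdh covariate.

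Immediate-early genes are those that BDNF is best known to induce at once. Of 11 tested immediate-early genes 1 fell and none rose, and of 10 genes of ERK feedback 1 fell and none rose, with medians of -0.08 and 0.05. These shares lie near the 5.58% of all tested genes that fell. No gene of either list was called with 48 h replicates 1 and 2 alone, with replicates 3 to 5 alone 1 rose and 1 fell in each, and with the Gapdh covariate 1 immediate-early gene other than Egr1 fell. Egr1, a zinc-finger factor, was at 3.51, 3.55, 3.64, 3.67 and 3.63 at 48 h, against 4.04, 3.56, 3.83, 4.01 and 4.15 at 24 h, a fall by 0.32 with groups that overlapped through 24 h replicate 2. Its basal level was 2.57 ± 0.12, below both. Spred1, an inhibitor of Ras-ERK signalling, fell by 0.37 at its brightest probe set, while 2 others had -0.06 and 0.24, not past the threshold. Fos had 0.10 and Dusp6 0.11, also not past it. Bdnf itself was at 1.36, 1.62, 2.30, 1.56 and 1.72 at 48 h, against 1.13, 1.34, 0.93, 0.98 and 1.03 at 24 h. It rose by 0.63 ± 0.14 (1.55-fold, adjusted p = 0.0028 by limma), without overlap of the groups, and the call ended with 48 h replicates 1 and 2 alone and with the Gapdh covariate. Its second probe set had 0.36 with an adjusted p of 0.0687. The receptor Ntrk2 (TrkB) had 0.01 and Ngfr (p75NTR) had -0.25, neither past the threshold.

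Among the 12 largest rises without overlap, 4 have been described (Qpct, Npy, Gabra2 and C1ql3). The largest was Snhg11, a long non-coding RNA gene expressed in neurons. It was at 1.58, 1.63, 2.14, 1.58 and 0.80 at 48 h, against 0.53, -0.20, 0.07, 0.27 and 0.79 at 24 h, so that the lowest 48 h array and the highest 24 h array were almost equal. The rise was 1.26 ± 0.25 (2.39-fold, adjusted p = 0.0015 by limma). Aldh1l1, a folate enzyme used as a marker of astrocytes and radial glia, was at 0.61, 0.50, 0.73, 0.70 and 0.40 at 48 h, against -0.69, -0.57, -0.30, -0.30 and -0.22 at 24 h, a clear separation (1.01 ± 0.15). Cd68, a lysosomal protein of macrophages and other cells, rose by 0.83 ± 0.19, with arrays at 0.54 to 1.23 at 48 h against 0.01 to 0.36 at 24 h. The others were Tmem191c (0.95), Amy1, a salivary amylase gene with close paralogs (0.91), the splicing regulator Sfswap (0.87), the imprinted gene Mkrn3 (0.86) and N4bp2l1 (0.86). Zdhhc12, a palmitoyltransferase gene, had a larger rise of 1.33 ± 0.44 (adjusted p = 0.0376 by limma) but its groups overlapped, and it is named for its size after its value was seen.

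**Figure D2:**
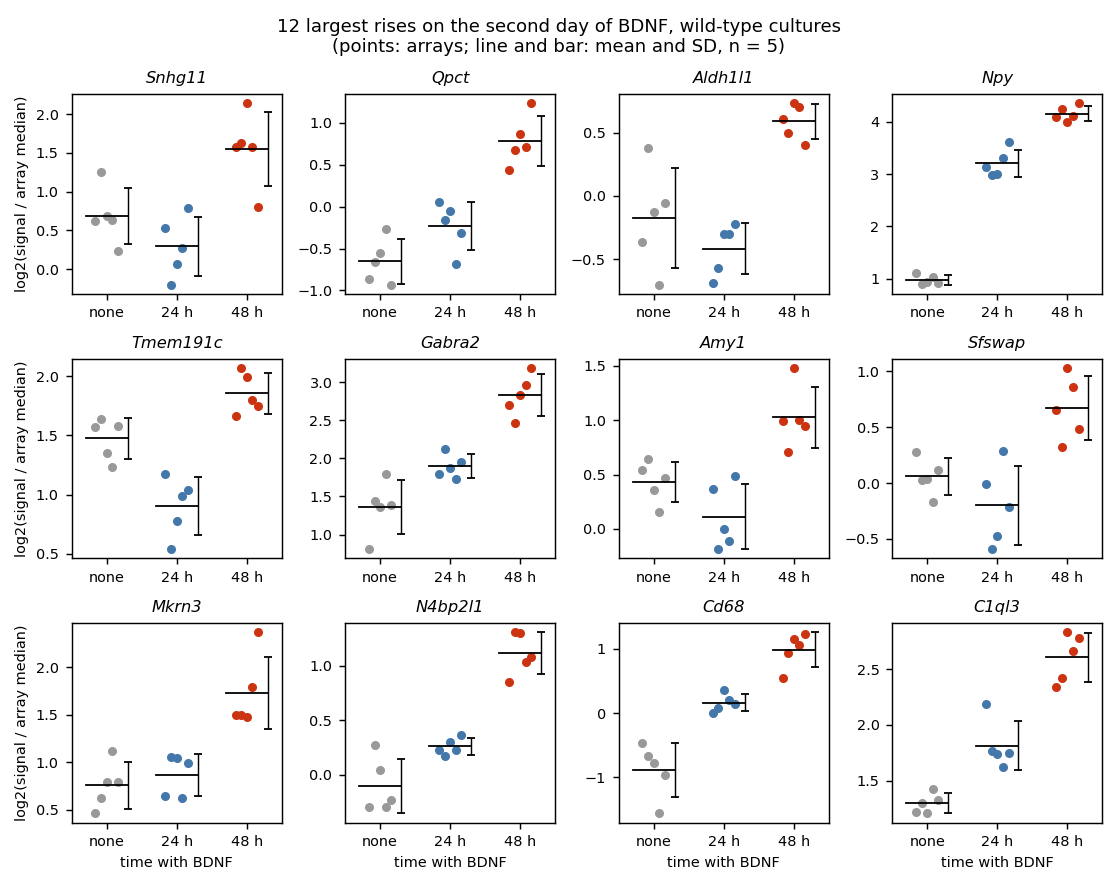
Log2 level per array (y axis) of the 12 largest rises without overlap in wild-type dishes with no BDNF, 24 h and 48 h of BDNF (x axis); points are arrays, lines and bars the mean and SD (n = 5). Npy, Cd68 and C1ql3 were higher at 24 h than without BDNF and higher again at 48 h, while Tmem191c averaged 1.48 without BDNF, 0.91 at 24 h and 1.85 at 48 h.

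Of 16 tested transcription factors of the GABAergic lineage 6 fell and none rose, with a median of -0.32. Meis2, a homeobox factor of striatal precursors, was at 4.05, 4.14, 4.02, 4.15 and 4.25 at 48 h, against 4.59, 4.51, 4.33, 4.49 and 4.53 at 24 h. Meis2 fell by 0.36 ± 0.07 without overlap (adjusted p = 8.44e-04 by limma). Isl1, a factor of striatal projection neurons and cholinergic neurons, averaged 2.17 ± 0.23 at 48 h and 2.63 ± 0.18 at 24 h, a fall by 0.46 without overlap. Sox6, needed by interneurons from the medial ganglionic eminence, fell by 0.34 without overlap. Ebf1 and Foxp1, factors of striatal neurons, fell by 0.56 and 0.36 with groups that overlapped, and of 4 other Foxp1 probe sets 1 fell (-0.45). The other Ebf1 probe set had -0.12, not past the threshold. Lhx8 fell by 0.34 and is named beyond the 5 largest. The Dlx genes, which define GABAergic progenitors, had 0.02 (Dlx1), -0.31 (Dlx2) and -0.36 (Dlx5), not past the threshold. In the refits 5 fell with replicates 1 and 2 alone, 4 with replicates 3 to 5 alone and 4 with the Gapdh covariate, with medians of -0.28, -0.25 and -0.32. Factors of the glutamatergic lineage had 1 rise and 2 falls among 14, beside 8.32% and 5.58% of all tested genes (median -0.02). Neurod6 rose by 0.33, and Neurog2 and Lhx9 each fell by 0.36, all 3 with groups that overlapped. None of this list was called with replicates 1 and 2 alone or with the Gapdh covariate, and 3 fell with replicates 3 to 5 alone.

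BMPs are secreted factors of the dorsal midline and the meninges that act through Smad proteins and induce Id and Msx genes. Of 16 tested genes of this pathway 6 fell and none rose, with a median of -0.26. Msx2, a homeobox gene induced by BMP, was at -1.74, -1.23, -1.97, -2.68 and -1.47 at 48 h, against -0.70, -0.67, -0.49, -1.03 and -0.75 at 24 h. It fell by 1.09 ± 0.16 (0.47-fold, adjusted p = 7.88e-05 by limma) without overlap and in each of the 26 refits, at a level below the median of the array. Id3, an inhibitor of basic helix-loop-helix factors, was at 0.89, 0.46, 0.15, 0.20 and 0.27 at 48 h, against 1.28, 1.20, 1.20, 1.10 and 0.87 at 24 h. It fell by 0.73 ± 0.12 (adjusted p = 1.32e-04 by limma), and only 48 h replicate 1 reached the range of the 24 h arrays. Id1 was at -0.40, 0.11, -0.23, 0.11 and -0.49 at 48 h, against 0.28, 0.49, 0.28, 0.38 and 0.44 at 24 h, a fall by 0.55 without overlap. Gata2 fell by 0.57, Msx1 by 0.45 and Id4, named beyond the 5 largest, by 0.23. The ligands Bmp4 and Bmp7 had -0.36 and -0.31, and the receptor subunits Bmpr1a and Bmpr2 had 0.09 and 0.33, none past the threshold. With 48 h replicates 1 and 2 alone 3 fell, with replicates 3 to 5 alone 6 fell and 1 rose, and with the Gapdh covariate 6 fell.

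Of 9 tested genes of retinoid binding and metabolism 2 fell and none rose, beside 5.58% of all tested genes that fell, with a median of -0.19. Both encode cellular retinoic acid binding proteins. Crabp2 was at -0.52, -0.77, -1.15, -1.33 and -1.21 at 48 h, against -0.28, -0.27, 0.00, -0.20 and 0.05 at 24 h, a fall by 0.86 ± 0.15 without overlap (adjusted p = 4.07e-04 by limma). Crabp1 was at 0.17, -0.47, -0.21, 0.13 and 0.13 at 48 h, against 0.46, 0.42, 0.37, 0.94 and 0.72 at 24 h, a fall by 0.63 ± 0.13, also without overlap. In the list 1 gene fell with 48 h replicates 1 and 2 alone and the call of Crabp2 ended, with replicates 3 to 5 alone 2 fell, and with the Gapdh covariate 3 fell.

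Embryonic globins fell. They are transcribed in primitive red cells of the embryo, and their promoters are printed because 2 of the 12 largest falls are such genes, Hbb-y on the minus strand (chr7:103853158-103853457) and Hba-x on the plus strand (chr11:32276350-32276649), from RefSeq, GRCm38.p6, 5′ to 3′. Capitals mark GATAA or its reverse complement TTATC, the core of the site of the erythroid factor GATA1.
Hbb-y: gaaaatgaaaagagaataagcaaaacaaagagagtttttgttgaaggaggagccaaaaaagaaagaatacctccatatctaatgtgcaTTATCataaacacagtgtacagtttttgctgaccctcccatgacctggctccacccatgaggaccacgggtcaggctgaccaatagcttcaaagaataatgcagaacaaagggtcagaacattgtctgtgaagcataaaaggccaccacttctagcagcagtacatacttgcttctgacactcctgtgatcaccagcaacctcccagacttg
Hba-x: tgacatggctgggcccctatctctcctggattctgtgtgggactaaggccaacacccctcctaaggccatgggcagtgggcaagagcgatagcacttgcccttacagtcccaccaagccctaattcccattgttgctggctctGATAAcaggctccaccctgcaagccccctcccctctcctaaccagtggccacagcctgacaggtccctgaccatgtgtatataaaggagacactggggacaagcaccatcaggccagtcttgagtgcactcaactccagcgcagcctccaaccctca
Each window held 1 match, from 162 bases before the start in Hbb-y and from 107 bases before it in Hba-x, and 25.4% of all 32851 windows held one. Hbb-y, a beta-like globin, was at 5.08, 5.09, 5.55, 4.67 and 5.13 at 48 h, against 6.33, 6.10, 6.37, 5.83 and 6.13 at 24 h. It fell by 1.05 ± 0.19 (0.483-fold, adjusted p = 7.25e-04 by limma) without overlap, and its other 2 probe sets had -1.05 and -1.43. Basal dishes were at 6.13 ± 0.37, close to the 24 h dishes. Hba-x, the zeta-like globin, was at -0.86, -0.62, -1.18, -1.57 and -1.36 at 48 h, against -0.07, -0.46, 0.24, -0.60 and -0.27 at 24 h. Hba-x fell by 0.89 ± 0.24, with 48 h replicate 2 and 24 h replicate 4 almost equal. The call of Hba-x ended with 48 h replicates 1 and 2 alone and with the Gapdh covariate. Hbb-bh1 fell by 0.69, a call that ended in 16 of 25 refits. Beta-like globins are alike in sequence, and probe sets may read more than 1 of them. All 3 tested erythroid markers fell, 1 with 48 h replicates 1 and 2 alone, 3 with replicates 3 to 5 alone and 2 with the Gapdh covariate, and 11 measured ones were too low to test, among them Alas2, an enzyme of heme synthesis in red cells, which lay at the floor of -3.32 on all 10 arrays. The summed signal of the measured erythroid list was 28.0 to 49.8 array medians at 48 h and 61.1 to 87.2 at 24 h. Its part in other results was not tested.

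Markers of other cell types moved in part. Of 14 tested markers of endothelium, pericytes and meninges 4 fell and none rose (median -0.20), beside 5.58% of all tested genes that fell. Their summed signal was 140 to 166 array medians at 48 h against 173 to 186 at 24 h. Acta2, smooth muscle actin, was at 4.97, 4.71, 4.83, 4.98 and 5.06 at 48 h, against 5.47, 5.32, 5.38, 5.19 and 5.52 at 24 h, a fall by 0.47 ± 0.07 without overlap. Ogn, Igfbp2 and Col1a2, made by meningeal fibroblasts, fell by 0.29, 0.25 and 0.23 with overlapping groups, while Col1a1 had -0.00 and Dcn 0.43, not past the threshold. The calls of Ogn, Igfbp2 and Col1a2 ended in 4, 13 and 7 of 27 refits. Other probe sets of Ogn and Col1a2 had 0.09 and -0.03, not past the threshold. The endothelial markers Pecam1 and Cdh5 lay at or near the floor. Of the list 2 markers fell with 48 h replicates 1 and 2 alone, with replicates 3 to 5 alone 3, and with the Gapdh covariate 4. This list fell together with the BMP genes, several of which meningeal cells express, and its part in that result was not tested. Of 12 tested markers of microglia and macrophages 1 rose (Cd68) and 2 fell, beside 8.32% and 5.58% of all tested genes: Ms4a6b by 0.92 ± 0.20 and Adgre1 (F4/80) by 0.39 ± 0.10. Csf1r, a defining receptor of microglia, had -0.20 and did not pass. Of these markers 2 fell with 48 h replicates 1 and 2 alone, with replicates 3 to 5 alone 1 rose and 2 fell, and with the Gapdh covariate 1 fell.

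Of 11 tested astrocyte markers 2 rose, Aldh1l1 and Sparcl1 (0.55 ± 0.11), beside 8.32% of all tested genes. Slc1a3 at 0.39, Apoe at 0.33, Gja1 at -0.20 and Sox9 at -0.18 did not pass. The refits gave 1 rise with 48 h replicates 1 and 2 alone, 2 rises and 2 falls with replicates 3 to 5 alone, and 2 rises with the Gapdh covariate. Olig1, a factor of the oligodendrocyte lineage, was at 1.11, 0.78, 1.05, 0.92 and 0.49 at 48 h, against -0.27, -0.05, 0.23, 0.50 and 0.20 at 24 h, a rise of 0.75 ± 0.18 in which the lowest 48 h array lay just under the highest 24 h array. Its partner Olig2 was too low to test. Of 3 tested markers of this lineage only Olig1 was called, beside 8.32% of all tested genes that rose. Mbp had -0.10 and Cnp 0.13, not past the threshold, and the median was 0.13. Of 33 tested genes of G1/S and DNA replication 2 fell (Cdk2 by 0.42 and Rrm2 by 0.22) and of 31 of G2/M and mitosis 1 fell (Plk1 by 0.40), with medians of -0.06 and -0.12, again beside 5.58% of all tested genes. None of either list was called with 48 h replicates 1 and 2 alone, 2 of each fell with replicates 3 to 5 alone, and with the Gapdh covariate 3 of the G2/M list fell. Among 25 genes of radial glia, progenitors and Notch signalling Ptprz1, a receptor phosphatase of radial glia, rose by 0.37 ± 0.07, and Notch3 and Prom1 fell by 0.46 and 0.33. These shares lie near the 8.32% and 5.58% of all tested genes that rose and fell. Vim had 0.01, Sox2 0.18 and Nes -0.37, not past the threshold. None of the 25 was called with 48 h replicates 1 and 2 alone, with replicates 3 to 5 alone 1 rose and 2 fell, and with the Gapdh covariate 1 rose.

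The remaining large falls were Adam4 (0.92 lower on the log2 scale), Srms, a kinase of the Src family (0.87), Zfp703, a zinc-finger gene (0.83), Crb3, a polarity protein of epithelia (0.74), Tnfaip6, a hyaluronan-binding protein (0.73), Kcne4, a potassium channel subunit (0.71), and Lmnb1, lamin B1 (0.71). Lmnb1 was at 2.05, 2.06, 1.64, 1.67 and 1.52 at 48 h, against 2.38, 2.71, 2.11, 2.83 and 2.46 at 24 h, so the groups nearly met, and its other probe set had -0.02 with an adjusted p of 0.9522. Zfp703 was at 0.38, 0.23, -0.22, -0.29 and -0.11 at 48 h, against 0.93, 0.43, 0.89, 0.92 and 0.98 at 24 h. Among the named genes 38 had other tested probe sets, 56 in all, of which 43 had the same direction and 13 the opposite one, and none of those 13 passed the threshold.

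**Figure D3:**
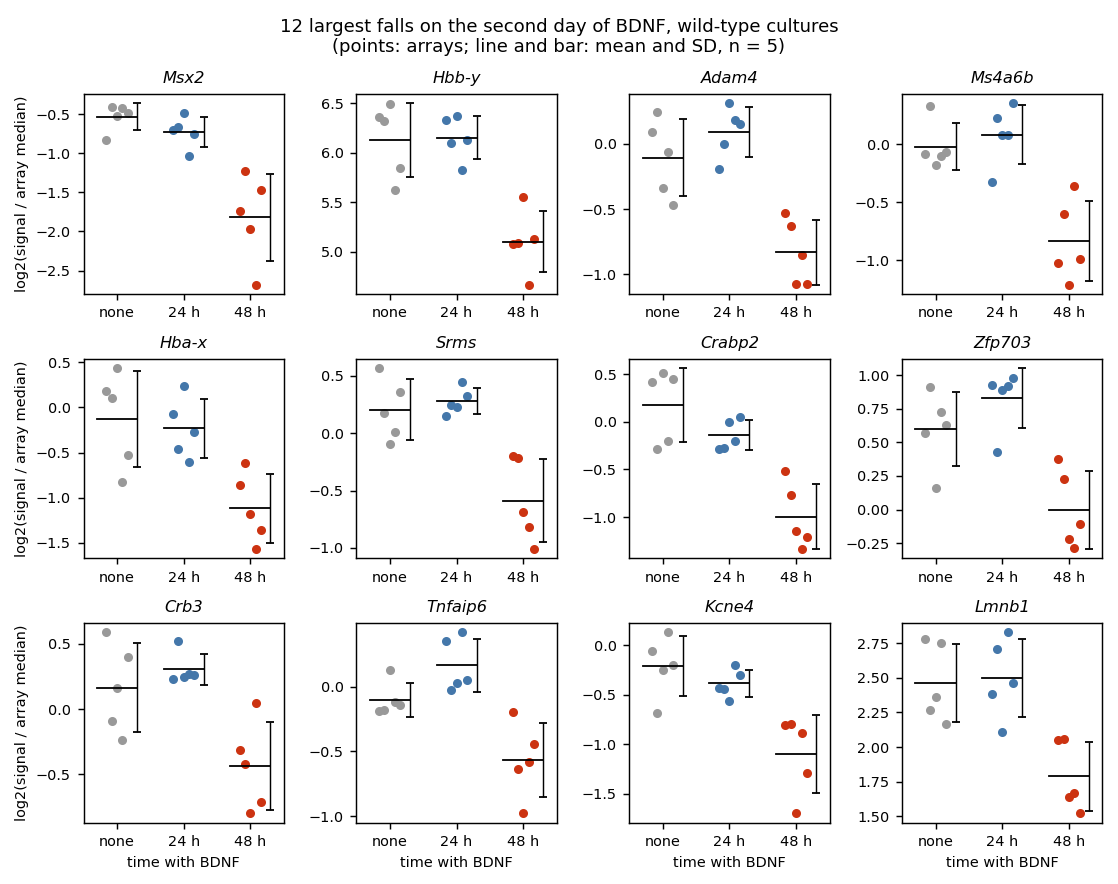
Log2 level per array (y axis) of the 12 largest falls without overlap in wild-type dishes with no BDNF, 24 h and 48 h of BDNF (x axis); points are arrays, lines and bars the mean and SD (n = 5). Hbb-y averaged 6.13 without BDNF, 6.15 at 24 h and 5.10 at 48 h, and most of the other genes likewise had a lower mean at 48 h than in both earlier groups.

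**Figure D4:**
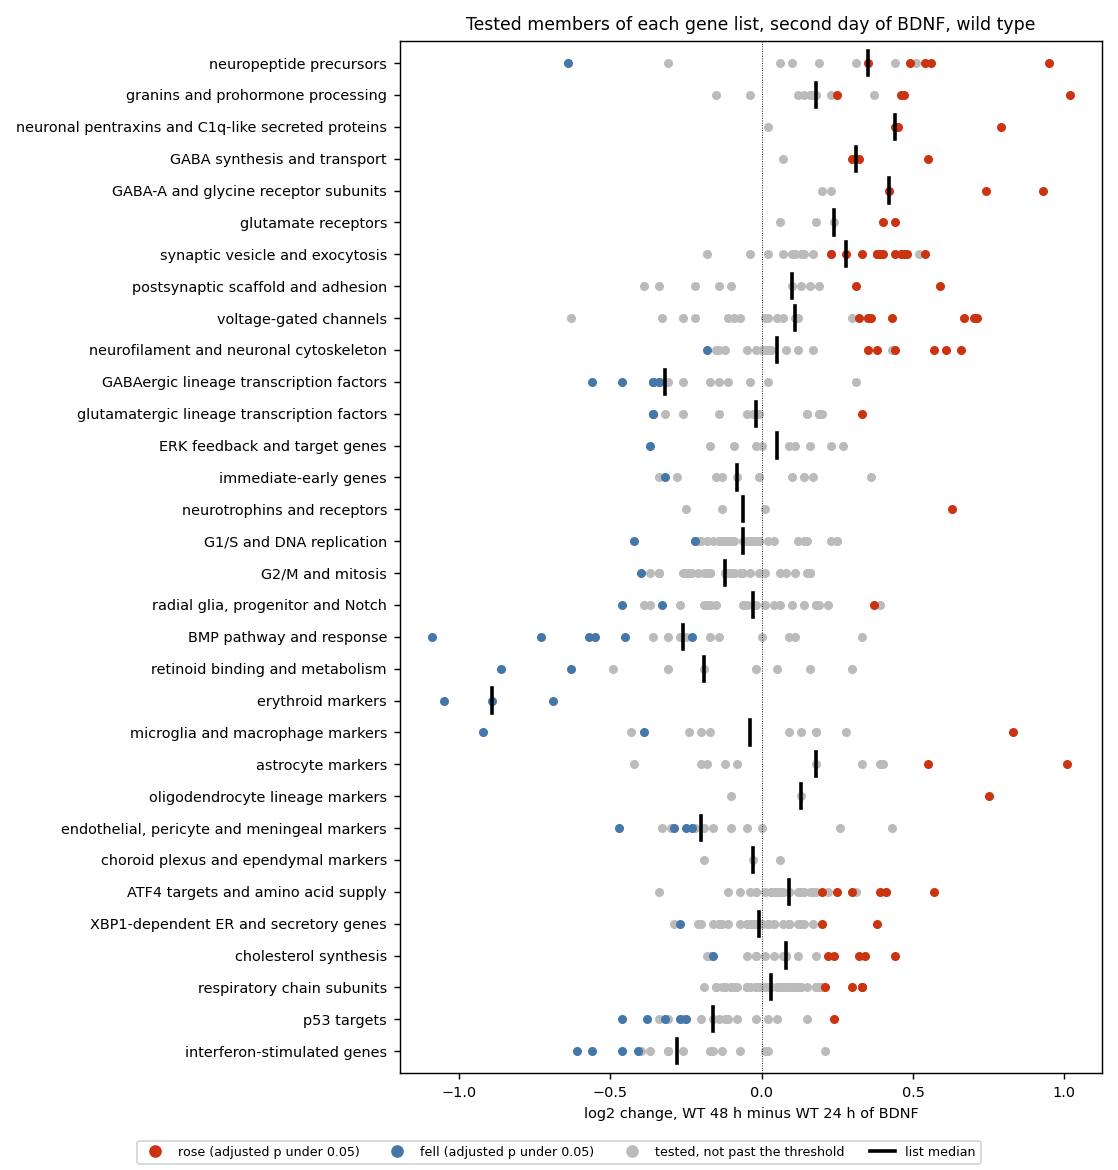
Log2 change (WT 48 h minus WT 24 h, x axis) of every tested member of each of 32 gene lists (rows); red points rose, blue points fell, grey points did not pass the threshold and the black tick is the list's median. Medians ran from -0.89 (erythroid markers, 3 genes) to 0.44 (pentraxins and C1q-like proteins, 4 genes), against 0.02 over all tested genes.

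The same step in time was set against that of the Xbp1-/- cultures to see where the second day differed between genotypes. Each genotype came from 1 pool of embryos, so genotype and pool cannot be told apart in any difference given here. Xbp1 encodes a factor that drives secretory pathway genes under endoplasmic reticulum stress, once IRE1 has spliced its mRNA. The brightest of 4 tested Xbp1 probe sets averaged 4.74 at 48 h and 4.62 at 24 h in Xbp1-/- dishes, and 4.64 ± 0.15 and 4.55 ± 0.08 in wild-type dishes. Where the probes lie relative to the deleted part is not given in the sources used here, so these levels do not check the genotype labels. In wild type Xbp1 had a change of 0.09 ± 0.06 (adjusted p = 0.3297 by limma), and the other 3 probe sets had 0.27, -0.42 and -0.02, none past the threshold. The genotype difference in the change passed the threshold in 5 of 7436 genes (0.0672%), and 451 had an unadjusted p under 0.05. The count of 5 was 0 to 8 when 1 array was left out, and 2 with 48 h replicates 1 and 2 alone.

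Id3 was at 2.41, 2.70, 2.43, 2.72 and 2.62 at 48 h and at 2.51, 2.47, 2.71, 2.46 and 2.28 at 24 h in Xbp1-/- dishes, a change of 0.09 with overlapping groups, against -0.73 in wild type. The difference was 0.82 ± 0.16 (SE, adjusted p = 0.0323 by limma). Thbd, thrombomodulin, an anticoagulant receptor of endothelium and some glia, was at 2.07, 2.16, 2.32, 2.37 and 2.31 at 48 h and at 1.92, 1.82, 2.20, 1.62 and 2.02 at 24 h in Xbp1-/- dishes. In wild type it was at 0.47, -0.13, -0.14, 0.09 and 0.29 at 48 h and at 0.80, 0.33, 1.10, 0.73 and 0.54 at 24 h. Its changes were 0.33 and -0.58, and the difference was 0.91 ± 0.18 (adjusted p = 0.0323 by limma). Both genes had a higher level in Xbp1-/- than in wild-type dishes at both times.

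Map1b was at 4.67, 4.65, 4.87, 4.96 and 5.20 at 48 h and at 4.93, 4.78, 5.04, 4.99 and 5.15 at 24 h in Xbp1-/- dishes, where the groups overlapped, and its difference from the wild-type rise was -0.72 ± 0.13 (adjusted p = 0.0162 by limma). Homer2, a postsynaptic scaffold, was at 2.78, 2.98, 3.02, 3.03 and 2.82 at 48 h and at 2.48, 2.63, 2.50, 2.44 and 2.46 at 24 h in Xbp1-/- dishes, a change of 0.43 against -0.14 in wild type. Its difference was 0.57 ± 0.10 (adjusted p = 0.0162 by limma). In wild type Homer2 averaged 3.31 ± 0.12 in 24 h dishes and 2.71 ± 0.09 in basal dishes. The Xbp1-/- basal dishes were not set beside these. Ing3, a chromatin reader of histone acetylation complexes, changed by -0.47 in Xbp1-/- and by 0.47 in wild type, a difference of -0.94 ± 0.19 (adjusted p = 0.0323 by limma), while its other 2 probe sets had -0.02 and -0.06 in wild type. Of these 5 genes, Id3, Map1b and Homer2 belong to the BMP, cytoskeleton and postsynaptic lists. For 5 other genes described above the difference did not pass the threshold. Npy changed by 0.61 in Xbp1-/- and 0.95 in wild type (difference -0.34 ± 0.15, adjusted p = 0.7729 by limma), Sst by 0.33 and 0.54 (-0.21 ± 0.11), Glrb by 0.89 and 0.74 (0.15 ± 0.14), Hbb-y by -1.21 and -1.05 (-0.16 ± 0.27) and Msx2 by -0.24 and -1.09 (0.85 ± 0.23, adjusted p = 0.3054 by limma). A p that misses the threshold does not show that the genotypes acted alike.

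**Figure D5:**
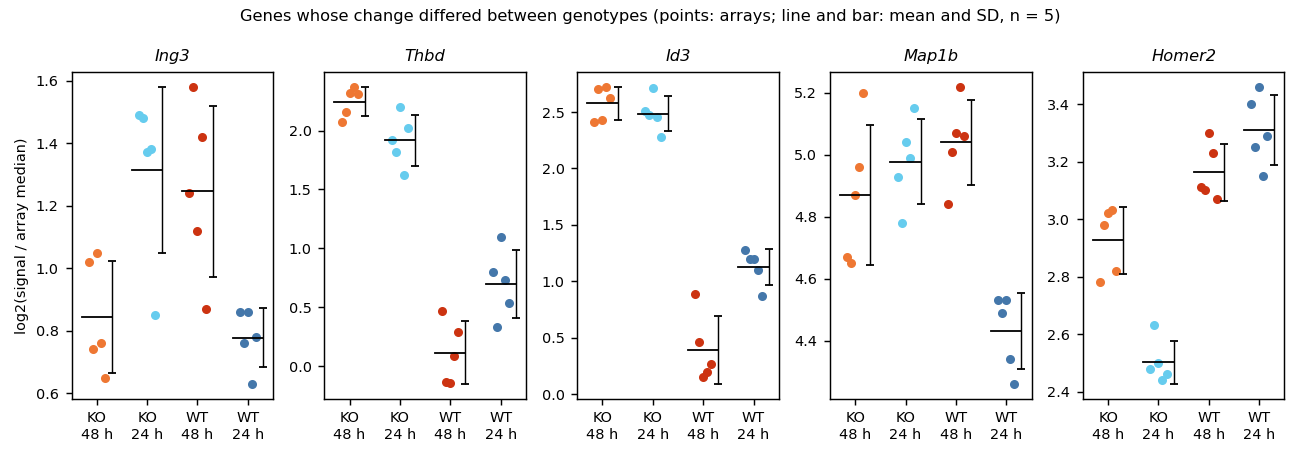
Log2 level per array (y axis) of the 5 genes whose change differed between genotypes, in Xbp1-/- (KO) and wild-type (WT) dishes at 48 h and 24 h of BDNF (x axis); points are arrays, lines and bars the mean and SD (n = 5). Id3 and Thbd lay lower at 48 h than at 24 h on average in WT, at 0.40 against 1.13 and 0.12 against 0.70, but not in KO, where the means were 2.57 against 2.49 and 2.24 against 1.92.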

How the data were processed

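Total RNA of 30 dishes was labelled after 2 rounds of cDNA synthesis and hybridised to mouse expression arrays, 1 dish per array, per the labels' protocols. The deposited values are MAS5 signal intensities on a linear scale, per the submitters' processing notes, in which the version is not given. Here each array was divided by its median, values below 0.1 were set to 0.1, log2 was taken, the brightest probe set stood for a gene and the upper 60% of 12394 genes by mean level were tested (7436). A model of 6 group means was fitted with limma 3.58.1 in R 4.3.3 (empirical Bayes with trend), with Benjamini-Hochberg adjustment over all tested genes and a threshold of 0.05. Of 22690 probe sets 20393 carried 1 gene symbol, 691 several and 1606 none. The number of arrays limits the precision. Refits left out single arrays and changed scaling, floor, filter, probe set rule and model. The members and gene lists were chosen with earlier results of these data known. Named genes were the 12 largest rises and 12 largest falls past the threshold without overlap, up to 5 called members of each list, Xbp1 and the genes whose change differed between genotypes. Promoters and gene positions came from RefSeq (GRCm38.p6). The model fit was tested on simulated gene levels with known changes and independent noise, while scaling, filter and probe set choice were not.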

Additional observations from a re-analysis of the deposited data

Results flagged for a closer look

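In 12 of 278 groups of 5 arrays, over 139 named genes and tested markers, 1 array stood apart from its group by Dixon's criterion, and chance gives about 5%. Among the 48 h arrays Map2 was 1.78 on replicate 5 (others 2.26 to 2.35), Stmn2 5.64 on replicate 1 (others 5.91 to 6.02) and Nes -1.51 on replicate 1 (others 0.90 to 1.31). Among the 24 h arrays C1ql3 was 2.19, Gad1 5.93 and Ptprz1 3.88 on replicate 1, each above the others. On 24 h replicate 2 Zfp703 was 0.43, Sst 4.54 and Vamp2 2.61, each below the others, and Crb3 was 0.52, above them. C1qa was -1.51 on 24 h replicate 3 and Slc1a4 1.76 on 24 h replicate 4, both below the others.

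The change between 24 h and 48 h differed between Xbp1-/- and wild-type dishes, by a test of the difference, for Ing3 (-0.94), Thbd (0.91), Id3 (0.82), Map1b (-0.72) and Homer2 (0.57). These 5 calls ended in 21, 21, 23, 7 and 8 of the alternatives.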

How the results depend on the processing

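Of the calls of named genes over all alternatives, 2595 kept direction and side of the threshold, 493 lost the threshold, 3 gained it and 11 turned direction. The counts of higher and lower genes, 619 and 415 as reported, were 506 and 618 with quantile normalization, 498 and 729 with 75th percentile scaling, 554 and 584 with no filter, 457 and 274 with the upper 40% of genes, 499 and 311 with the mean of probe sets, 1060 and 617 with array weights, 238 and 171 at adjusted p under 0.01, 481 and 275 with only the 10 arrays compared, and 557 and 324 with only wild-type arrays. With values as deposited, which shifted the median of all genes by 0.334, they were 4566 and 21. They were 33 and 103 with 48 h replicates 1 and 2 alone, 1104 and 493 with replicates 3 to 5 alone, and 126 and 171 with the Gapdh covariate. Leaving out 1 array gave 346 to 905 higher and 248 to 443 lower, with 346 and 248 without 48 h replicate 3. Replicate numbers did not pair the arrays (correlations of same-numbered deviations -0.11 to 0.086), and the replicate block gave 664 and 434, with 2 genotype differences. The 5 genotype differences became 3 with quantile normalization, 3 as deposited, 1 with no filter, 1 with the mean of probe sets, 9 with array weights, 0 at adjusted p under 0.01, 2 with 48 h replicates 1 and 2 alone, and 0 to 8 with 1 array left out (0 without 48 h replicate 2 of either genotype). As deposited, direction turned for Homer2 (0.172), Rrm2 (0.098), Ogn (0.029), Igfbp2 (0.063), Col1a2 (0.087), Kdelr2 (0.046), Cdkn1a (0.042) and Mdm2 (0.061). With the mean of probe sets it turned for Cox8a (-0.019) and Xbp1 (-0.019), and with replicates 1 and 2 alone for Xbp1 (-0.064). The cause was not tested.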

Other observations

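Other lists covered metabolism and stress. Of 33 tested targets of ATF4, the factor of the integrated stress response, and amino acid supply genes 6 rose and none fell (median 0.09), led by the amino acid transporters Slc1a4 (0.57) and Slc7a5 (0.41) and by Cars, a cysteinyl-tRNA synthetase (0.39). The rise of Slc1a4 is that of its brightest probe set, while its others had 0.21 and -0.04, not past the threshold. None of the 33 rose with 48 h replicates 1 and 2 alone, 12 did with replicates 3 to 5 alone and 1 with the Gapdh covariate. Of 43 XBP1-dependent genes of the endoplasmic reticulum 2 rose, the chaperone Dnajb9 (0.38) and Ssr4 (0.20), and Kdelr2 fell (-0.27), with a median of -0.01. In 4, 11 and 10 of 27 refits the calls of Dnajb9, Ssr4 and Kdelr2 ended. Each ended with 48 h replicates 1 and 2 alone and with the Gapdh covariate. Of 19 genes of cholesterol synthesis 5 rose, among them Mvd (0.44) and Pmvk (0.34), and Fdft1 fell (-0.16). Of the 5 rises, those of Idi1, Msmo1, Tm7sf2, Pmvk and Mvd lost the threshold in 18, 15, 3, 1 and 0 of 27 refits. The other Mvd probe set had 0.18, not past the threshold. Of 54 respiratory chain subunits 4 rose (median 0.03). The calls of Ndufb3, Ndufb2, Cox8a and Ndufa2 ended in 17, 14, 11 and 1 of 27 refits. Other probe sets of Ndufb2 and Cox8a had 0.10 and -0.13, not past the threshold. Beside these lists, 8.32% of all tested genes rose and 5.58% fell. The shares of the XBP1-dependent genes and the respiratory chain subunits lay below these.

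Of 19 p53 targets 5 fell and 1 rose (median -0.16): Ddit4l (-0.46), Plk2 (-0.38), Polk (-0.32), Cdkn1a (-0.27) and Mdm2 (-0.25) fell, and Rrm2b rose (0.24). Among all tested genes 5.58% fell and 8.32% rose. The calls of the 5 falls, in this order, ended in 10 of 26, 6 of 27, 7 of 26, 8 of 27 and 9 of 27 refits. Those of Ddit4l, Polk and Mdm2 ended with 48 h replicates 1 and 2 alone and with the Gapdh covariate. Those of Plk2 and Cdkn1a ended with replicates 3 to 5 alone. Other probe sets of Ddit4l, Cdkn1a and Mdm2 had -0.35, 0.08 and -0.06, not past the threshold. Of 16 interferon-stimulated genes 4 fell and none rose (median -0.28), again beside 5.58% of all tested genes that fell: Ifit1 (-0.61), Usp18 (-0.56), Irf1 (-0.46) and Ifit3 (-0.41). None of these 4 was called with 48 h replicates 1 and 2 alone. With the Gapdh covariate the calls of Usp18 and Irf1 ended. That of Ifit3 ended with replicates 3 to 5 alone and in 12 of 26 refits in all. All calls are limma's at adjusted p under 0.05.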
